A study of Caenorhabditis elegans with 4 samples.

Results

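The genes described here are a set of Cys-loop ligand-gated ion channel genes of *C. elegans*, chosen by symbol and without those of the ACR-2 receptor. They were measured in sorted wild-type neurons that carried *Pacr-2*::*gfp*. A gene was taken if its symbol was *acr* or *lgc* followed by a number, leaving out *acr-2*, *acr-3* and *acr-12*, or if it was *unc-29*, *lev-1*, *lev-8*, *deg-3*, *des-2*, *eat-2*, *unc-49*, *gab-1*, *exp-1* or *mod-1*. This gave 81 genes of the 41560 gene symbols in the deposited values, each with 1 row in each library. Cys-loop genes with other symbols, such as *acc-4* and *avr-14*, are outside the set. In the results, counts, sums and ranks of the channel genes or of the family refer to these 81 genes. All 81 are annotated as protein-coding, as are 19363 of all the symbols. The study sorted GFP-positive cells from 2 strains that both carry the transgene *juIs14[Pacr-2*::*gfp]*, CZ5808 with the *acr-2(gf)* mutation and CZ631 with wild-type *acr-2*, with 2 samples of each. The animals were young adults grown for 72 hours at 20°C as synchronized populations, so each sample pools many animals. Only the 2 CZ631 libraries were analysed here, and no comparison with *acr-2(gf)* was made. The reporter marks the cholinergic motoneurons of the ventral cord together with neurons of the head and tail whose identity is not given, so a value stands for the mix of sorted cells.

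Cys-loop channels are built of 5 subunits around a central pore, and each subunit carries a conserved loop closed by a pair of cysteines in its extracellular part. In vertebrates the family holds the nicotinic acetylcholine receptors, which pass cations and excite the cell, and the GABA-A and glycine receptors, which pass chloride and usually inhibit it. *C. elegans* has many more such genes, among them acetylcholine-gated and amine-gated chloride channels and GABA-gated cation channels, and many *lgc* (ligand-gated channel) genes have been named by sequence alone. In the motor circuit, motoneurons release acetylcholine onto nicotinic receptors of body-wall muscle, GABAergic motoneurons release GABA onto the UNC-49 receptor of the same muscle, and motoneurons themselves carry receptors that tune their output.

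The unit of all values is FPKM, the number of fragments scaled to transcript length and to the mapped fragments of the library, which the authors computed with Cufflinks. It is a level per length of transcript, meant to let levels of different genes be set side by side. Cufflinks gave an FPKM above 0 to 13107 and 16792 of the 42518 rows in libraries 1 and 2. Read counts were not analysed here. If the upper bound of the Cufflinks 95% interval is read as the error of counting a number of fragments, the fragments per unit of FPKM were 1.22 times as many in library 2 as in library 1 (median of 11382 genes, middle 50% from 1.197 to 1.232), a measure of relative depth. On this reading the intervals of the 24 expressed genes described below stand for 397 to 6443 fragments in library 1 and for 714 to 9946 fragments in library 2. The reading held less well for some of these genes. Their ratio had a median of 1.21, but its middle 50% ran from 1.01 to 1.23. *lgc-35* would have 1451 and 1731 fragments at 80.9 and 225 FPKM in libraries 1 and 2, so such numbers are not counts of reads. Reads that are copies of 1 molecule are not independent, so these intervals can understate the error. Of 6 cholinergic marker genes looked up, all 6 had an FPKM over 10 in both libraries, with *unc-17*, which encodes the vesicular acetylcholine transporter, at 395 and 573 FPKM. Markers of other cells were present too. The 9 body-wall muscle markers summed to 5259 and 5411 FPKM, with 5 over 10 FPKM in both libraries, and the 5 GABAergic markers summed to 270 and 659 FPKM, with 3 over it. None of these markers was listed at 0, and the lowest was the muscle gene *unc-22* at 1.48 and 2.55 FPKM. Among the 4 intestine markers 2 were over 10 FPKM, and among the 5 pharyngeal muscle markers 2 were. In such bulk samples, fewer cells of a type and less RNA per cell cannot be told apart.

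With the study's limit for an expressed gene, an FPKM over 10 in both libraries, 24 of the 81 channel genes (29.6%) were expressed. The same limit was passed by 34.0% of all protein-coding genes and by 16.5% of all gene symbols, so the share of channel genes expressed was near that of protein-coding genes in general. The symbols that passed, 6839 in all, are many more than the transcripts in the study's own list of expressed genes, so the word expressed refers here to the limit only. Of the other 57 channel genes, 3 were over the limit in 1 library only and 54 in neither. The median of the mean FPKM was 3.27 over the 81 genes (2.90 in library 1 and 3.47 in library 2), beside 4.29 over all protein-coding genes. The 5 highest genes held 58.3% of the summed FPKM of the family in library 1 and 65.4% in library 2. Only 4 genes, *lgc-31*, *unc-49*, *gab-1* and *lgc-38*, were over 100 FPKM in both libraries, 16 were over 20 FPKM, and 23 were under 1 FPKM in both.

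The order of the levels had few clear steps. When the 24 expressed genes were ranked by their mean, the libraries of neighbouring genes overlapped in 20 of 23 pairs. The values of *lgc-31* and *unc-49* lay above those of every other channel gene, the lowest of them being 260 FPKM against at most 225 FPKM for the next gene, *lgc-35*. The second step came after *lgc-38*. All values of the 5 highest genes were at least 80.9 FPKM, and those of the remaining 19 at most 65.7 FPKM. Within each of these blocks the values of neighbours overlapped, apart from *acr-15* and *lgc-33*, at 36.9 to 37.7 FPKM and 32.2 to 35.6 FPKM. This comparison pools the libraries, so an overlap does not mean that 2 genes had the same level within a library. *gab-1* was above *lgc-38* in each library, at 126 and 162 FPKM beside 107 and 154 FPKM. *lgc-35* was below *gab-1* in library 1 and above it in library 2.

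**Figure D1:**
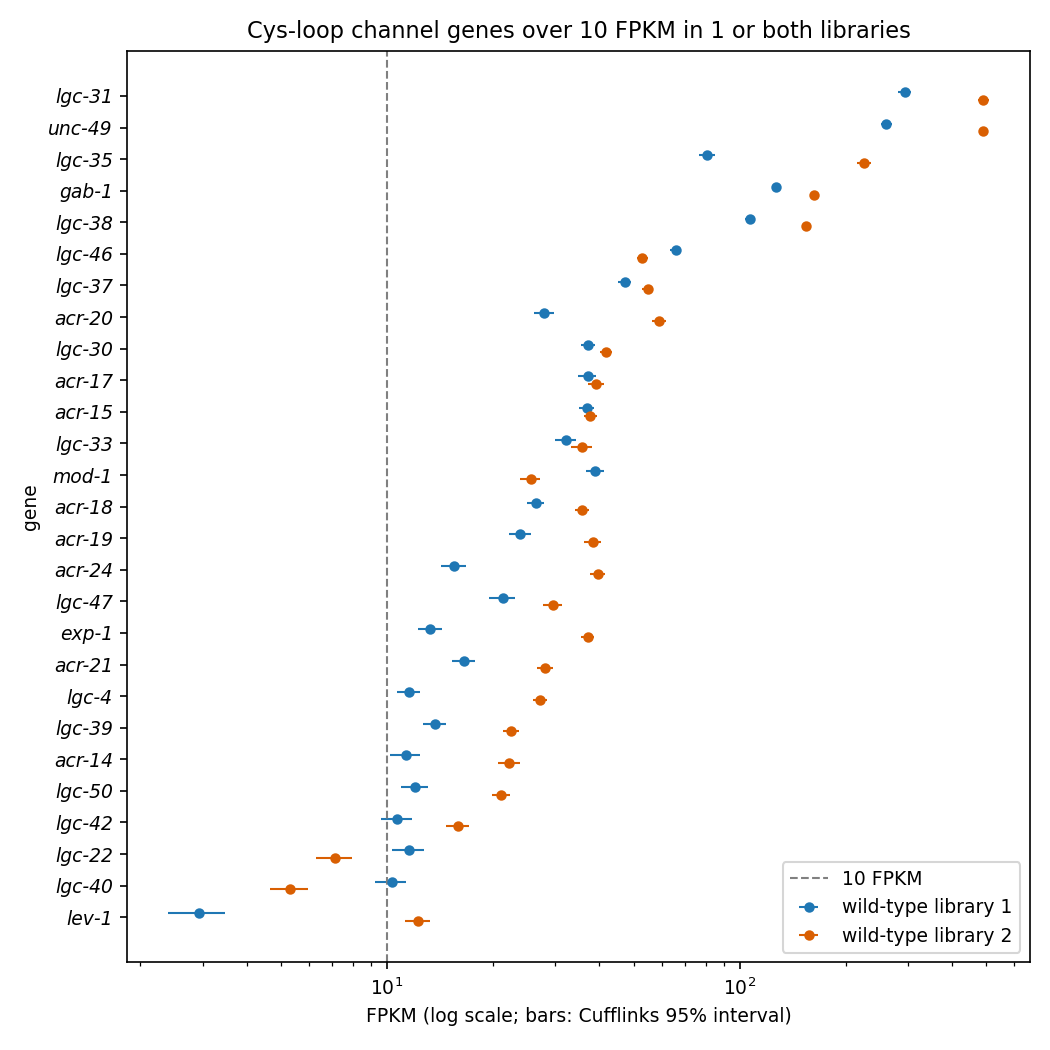
FPKM (log axis) of the 27 channel genes over 10 FPKM in at least 1 wild-type library, ordered by mean, with 1 point per library and bars for the Cufflinks 95% interval. The top 2 genes reach 490 FPKM in library 2, most genes lie to the right in library 2, and the bottom 3 are over the dashed limit in 1 library only.

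The GABA-gated channels were the group with the highest levels. Of the 7 genes on this list, 6 were expressed, and the median of their means was 130 FPKM. *unc-49* (WBGene00006784, chromosome III, 10520870 to 10532455 in ce10, + strand), which encodes the subunits of the chloride channel that receives GABA on body-wall muscle, had 260 FPKM in library 1 and 490 FPKM in library 2, a mean of 375 ± 163 FPKM (SD, n = 2). It ranked 689th among the 6839 expressed genes. A short non-coding gene on the same strand, T21C12.12, shares 84 exonic bases with it (2.04% of the exonic bases of *unc-49*) and had 1938 and 1736 FPKM, so reads there could belong to either gene, and how many of them *unc-49* holds was not measured. Of the 9 body-wall muscle markers, which summed to 5259 and 5411 FPKM with *pat-10* as the largest part, 6 differed at most 1.29-fold between the libraries. The low markers *unc-22*, *myo-3* and *unc-89* were 1.73-fold, 1.62-fold and 1.53-fold higher in library 2, beside 1.89-fold for *unc-49*. The part of muscle RNA in the level of *unc-49* was not tested.

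2 GABA-gated channels that pass cations, and so excite, were also expressed. *lgc-35* (WBGene00012915, chromosome II, 12836499 to 12840067 in ce10, − strand), a GABA-gated cation channel known from motoneurons, had 80.9 and 225 FPKM (153 ± 102, SD, n = 2). *exp-1*, the excitatory GABA receptor of the enteric muscles, had 13.3 and 37.02 FPKM (25.1 ± 16.8, SD, n = 2). Their FPKM ratios between the libraries were nearly the same, 2.78-fold and 2.79-fold higher in library 2. These were the largest differences in FPKM among the 24 expressed genes. The fragments implied by the interval widths did not differ alike. They went from 1451 in library 1 to 1731 in library 2 for *lgc-35*, and from 662 to 2291 for *exp-1*. The sum of the GABAergic markers was also higher in library 2, by the values given above, and its part in these differences was not tested.

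The other GABA-gated list genes encode subunits of the GABA-A type. *gab-1* (WBGene00001512, chromosome III, 12771888 to 12779624 in ce10, − strand) had 126 and 162 FPKM (144 ± 25.2, SD, n = 2), and *lgc-38* (WBGene00017389, chromosome III, 7009188 to 7019347 in ce10, + strand) had 107 and 154 FPKM (130 ± 33.8, SD, n = 2). *lgc-37* had 47.1 and 54.8 FPKM (50.9 ± 5.39, SD, n = 2). These 3 genes differed less between the libraries than *lgc-35* and *exp-1*, at most 1.45-fold. *lgc-36* was the 1 gene of the list below the limit, with 1.94 and 7.68 FPKM. The list of 7 genes held 42.8% of the summed FPKM of all 81 channel genes in library 1 and 48.6% in library 2.

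**Figure D2:**
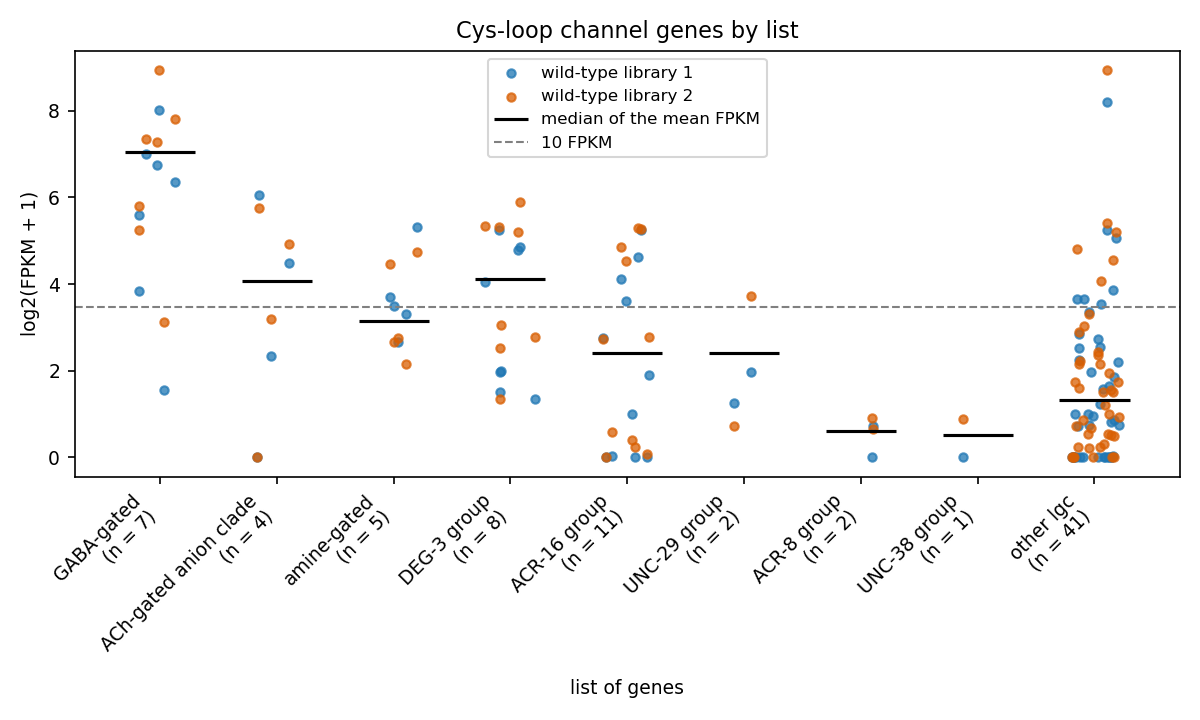
log2(FPKM + 1) of all 81 channel genes in both wild-type libraries, grouped by list, with a black bar for the median of the mean FPKM and a dashed line at 10 FPKM. The median of the 7 GABA-gated genes is 130 FPKM, those of the other lists lie between 0.426 and 16.3 FPKM, and *lgc-31* stands alone at the top of the remaining *lgc* genes.

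The highest mean of the family was that of *lgc-31* (WBGene00008997, chromosome V, 15512837 to 15521987 in ce10, − strand, 14 exons in its longest annotated transcript), an *lgc* gene on no list by ligand. It had 293 FPKM in library 1 and 490 FPKM in library 2, a mean of 392 ± 139 FPKM (SD, n = 2), and ranked 664th among the expressed genes. Its values overlapped those of *unc-49*. It shares 53 exonic bases with F21A3.3 on the opposite strand, a gene at 9.18 and 6.28 FPKM. The intervals of *lgc-31* had the widths of 2091 and 3223 fragments in libraries 1 and 2. Those of *gab-1* had the widths of 6443 and 9946 fragments at a lower FPKM, and its longest annotated transcript has 1775 bases beside 2133 for *lgc-31*. The lengths and the split between transcripts that Cufflinks used were not examined, so their part in the top ranks was not tested.

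Of the 41 *lgc* genes without a list, 6 were expressed (14.6%), and the median of their means was 1.52 FPKM. After *lgc-31* came *lgc-30* at 37.2 and 41.8 FPKM and *lgc-33* at 32.2 and 35.6 FPKM, both on chromosome IV, and each of them differed little between the libraries. *lgc-4* had 11.5 and 27.1 FPKM, *lgc-39* had 13.6 and 22.5 FPKM, and *lgc-42* had 10.7 and 15.9 FPKM. All 3 were closer to the limit in library 1. *lgc-42* was the expressed gene nearest the limit, and the lower bound of its interval in library 1, 9.62 FPKM, fell below it. Just outside were *lgc-22*, at 11.5 and 7.12 FPKM, and *lgc-26*, at 9.25 and 8.96 FPKM. The next highest were *lgc-28*, *lgc-25*, *lgc-34* and *lgc-27*, with means of 5.59, 5.02, 4.83 and 4.18 FPKM. The remaining 29 genes of this set had means under 3 FPKM, and 4 of them, *lgc-16*, *lgc-17*, *lgc-51* and *lgc-54*, were listed at 0 in both libraries.

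Acetylcholine also opens chloride channels in *C. elegans*, and 4 of the genes belong to this clade. *lgc-46* (WBGene00022106, chromosome III, 1125555 to 1135957 in ce10, − strand), an acetylcholine-gated anion channel known from the presynaptic terminals of cholinergic motoneurons, had 65.7 FPKM in library 1 and 52.9 FPKM in library 2 (59.3 ± 9.07, SD, n = 2). By its mean it ranked 6th among the channel genes, and its level was close to that of *acr-2* itself, which had 58.3 and 53.1 FPKM. The libraries of *lgc-46* and *acr-2* overlapped. *lgc-47* followed at 21.3 and 29.4 FPKM, *lgc-49* was under the limit at 4.03 and 8.18 FPKM, and *lgc-48* was listed at 0 in both libraries.

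Among the 5 channels on the amine-gated list, 2 were expressed. *mod-1*, a serotonin-gated chloride channel, had 38.9 FPKM in library 1 and 25.5 FPKM in library 2 (32.2 ± 9.47, SD, n = 2). *lgc-50*, a serotonin-gated cation channel, had 12.01 and 21.1 FPKM (16.5 ± 6.42, SD, n = 2). *lgc-40*, which opens to serotonin, choline and acetylcholine, was over the limit in library 1 only, at 10.3 and 5.32 FPKM. Of these 3 serotonin-gated genes, *mod-1* and *lgc-40* were lower in library 2 and *lgc-50* was higher. The tyramine-gated chloride channel gene *lgc-55* had 8.94 and 3.45 FPKM, and the dopamine-gated *lgc-53* had 5.28 and 5.78 FPKM. Serotonin-gated channels were therefore the only genes of this list over the limit in both libraries.

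The nicotinic receptor genes fall into groups named after a founding gene. In all, 24 of them were members of a list, and 8 of these were expressed (33.3%, beside 34.0% of protein-coding genes), all of them in the DEG-3 and ACR-16 groups. Together they held 14.7% and 14.9% of the summed FPKM of the family in libraries 1 and 2.

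The DEG-3 group holds subunits that are found in nematodes and include a choline-gated and a betaine-gated receptor. Of its 8 genes, 4 were expressed, namely *acr-20*, *acr-17*, *acr-18* and *acr-24*. *acr-20* had 27.9 and 58.9 FPKM (43.4 ± 21.9, SD, n = 2), and its exons share 71 bases with those of *imb-2* on the opposite strand, which had 37.4 and 40.4 FPKM. *acr-17* had 37.003 and 39.2 FPKM, with overlapping Cufflinks intervals. *acr-18* had 26.4 and 35.8 FPKM, and *acr-24* had 15.5 and 39.6 FPKM. *acr-20* and *acr-24* were thus over 2-fold apart, 2.11-fold and 2.56-fold, while *acr-17* was nearly the same in both libraries. *deg-3* and *des-2*, which encode the subunits of a choline-gated channel of sensory neurons, were below the limit, *deg-3* at 1.83 and 4.71 FPKM and *des-2* at 2.96 and 7.31 FPKM. *acr-5*, a gene used as a marker of B-type motoneurons, had 1.56 and 5.90 FPKM, and *acr-23*, the betaine receptor, had 2.90 and 1.53 FPKM. *acr-22*, also on the list of this group, had no row under that symbol. The gene ID of *lgc-11*, WBGene00000061, lies between those of *acr-21* (WBGene00000060) and *acr-23* (WBGene00000062). Whether *lgc-11*, at 0 and 0.229 FPKM and counted with the *lgc* genes without a list, is *acr-22* under a later name was not checked.

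The ACR-16 group is the one closest to the vertebrate alpha7 receptor. Of its 11 genes, 4 were expressed. *acr-15* was the highest at 36.9 and 37.7 FPKM (37.3 ± 0.609, SD, n = 2), the smallest difference between the libraries among all expressed channel genes, 1.02-fold. *acr-19* had 23.8 and 38.3 FPKM, *acr-21* had 16.5 and 28.0 FPKM, and *acr-14* had 11.3 and 22.2 FPKM. In each of these 3 genes library 2 was higher by 1.61-fold to 1.96-fold. *acr-16* itself, the subunit of the nicotine-sensitive receptor of body-wall muscle, was under the limit at 5.76 and 5.61 FPKM. *acr-9* had 2.73 and 5.86 FPKM, and *acr-11* had 1.01 and 0.310 FPKM. The pharyngeal receptor gene *eat-2*, which sets the rate of pumping, had 0.0228 and 0.506 FPKM. *acr-7* and *acr-10* were listed at 0 in library 1 and had 0.178 and 0.0467 FPKM in library 2, and *acr-25* was listed at 0 in both. The group thus held both nearly equal pairs of values and genes seen in 1 library only.

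The levamisole-sensitive receptor, which carries much of the acetylcholine response of body-wall muscle, had subunits at very different levels. *unc-38* and *unc-63*, which are shared with the ACR-2 receptor and lie outside the 81 genes, were expressed at 14.7 and 49.8 FPKM and at 11.8 and 22.8 FPKM. The other subunits were below the limit in at least 1 library. *unc-29*, an essential subunit of it, had 1.40 and 0.645 FPKM, and *lev-8* was listed at 0 in library 1 and had 0.871 FPKM in library 2. *lev-1* had 2.93 and 12.3 FPKM, a 4.18-fold difference that put it over the limit in library 2 only. In related groups, *acr-8* had 0.652 and 0.568 FPKM, and *acr-6* was listed at 0 and had 0.851 FPKM. None of the 5 genes from *unc-29* to *acr-6* was expressed by the limit. Beside them, 5 of 9 body-wall muscle markers were over the limit, with *pat-10*, the troponin C gene, at 3693 and 3957 FPKM and the muscle myosin gene *unc-54* at 178 and 138 FPKM, while the myogenic factor gene *hlh-1* had 1.95 and 2.14 FPKM. On average *unc-49* had 375 FPKM, *acr-16* 5.68 FPKM and *unc-29* 1.02 FPKM.

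The expressed channel genes were mostly higher in library 2. This was so in 22 of 24 genes (91.7%), *mod-1* and *lgc-46* being the exceptions, beside 58.3% of all expressed genes. Among genes over 1 FPKM in both libraries the shares were closer, 32 of 46 channel genes (69.6%) beside 59.1% of all genes. The median log2 ratio of library 2 over library 1 was 0.63 over the 24 genes and 0.12 over all expressed genes. With the libraries scaled to their upper quartile, 19 of the 24 (79.2%) were higher in library 2, beside 49.05% of all expressed genes, whose median log2 ratio moved to -0.01, and with each library scaled to the same sum (TPM) it was 14 of 16 (87.5%), beside 64.3%. Only 1 window of transcript length was looked at, that of the middle 50% of the expressed channel genes, added after the values had been seen. Of the expressed protein-coding genes in this window, 65.2% were higher in library 2, beside 58.7% of all expressed protein-coding genes. Markers of other cells also differed between the libraries. The 5 GABAergic markers summed to 270 and 659 FPKM and were all higher in library 2, whereas the 4 intestine markers summed to 2605 and 1330 FPKM. In that list *vit-2*, *mtl-2* and *ges-1* were lower in library 2 and *elt-2* was higher, at 1.68 and 5.36 FPKM. The part of transcript length and of these cells in the result was not tested. The libraries are replicates of 1 group, and the labels do not say that they came from separate cultures, so their spread may be technical.

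A difference of over 2-fold was seen in 5 of the 24 genes (20.8%), namely *exp-1*, *lgc-35*, *acr-24*, *lgc-4* and *acr-20*, beside 14.5% of all expressed genes. The exons of *lgc-4* share 96 bases (4.21% of its own) with F18G5.8, a non-coding gene on the opposite strand that was listed at 0 in library 1 and had 181 FPKM in library 2. Those of *exp-1* share 41 bases with *abts-3* on the opposite strand, which had 58.0 and 96.1 FPKM. The part of these overlaps in the differences was not tested. In 21 of the 24 genes (87.5%) the Cufflinks intervals of the libraries did not overlap, beside 75.7% of all expressed genes. Those intervals reached at most 10.0% to either side of a value, whereas the SD of the 2 libraries was 31.2% of the mean in the median expressed channel gene. In the median expressed channel gene the error within a library was therefore smaller than the spread between libraries. This did not hold for every gene. The SD of *acr-15* (0.609 FPKM) and of *acr-17* (1.52 FPKM) was smaller than the distance their intervals reached to either side. An SD of 2 close values can understate the error, so the SD is to be read together with the interval. Between the libraries, log2(FPKM + 1) of the 81 genes gave a Pearson's r of 0.94 and a Spearman's rho of 0.88. These are correlations across genes, which are not independent replicates.

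**Figure D3:**
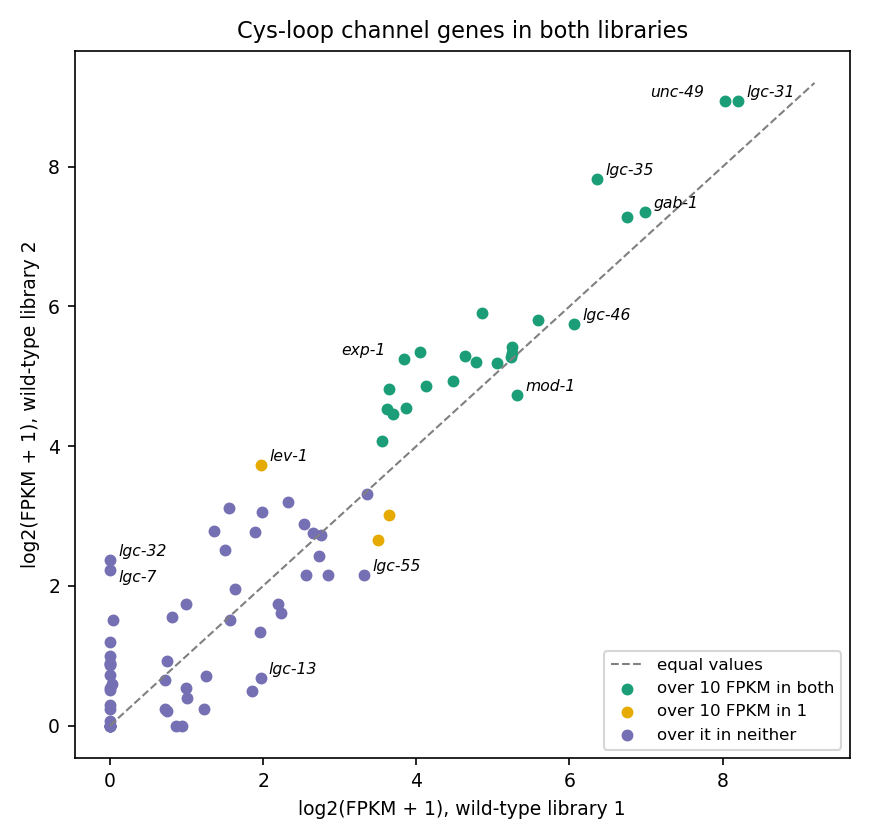
log2(FPKM + 1) of the 81 channel genes in wild-type library 2 against library 1, colored by whether a gene was over 10 FPKM in both, 1 or neither library, with a dashed line for equal values. Of the 24 expressed genes 22 lie above the line, and a column of genes at 0 in library 1 stands at the left.

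Some of the low genes were found in 1 library only. FPKM was above 0 in both libraries for 60 of the 81 genes, beside 12094 of the 19363 protein-coding genes. It was at 0 in both for 6, beside 19.5% of protein-coding genes. The 15 others were split unevenly, as protein-coding genes in general were. Of the 81 genes, 13 were listed at 0 in library 1 only (beside 16.9% of all protein-coding genes). The other 2, *lgc-19* and *lgc-15*, were at 0 in library 2 only (beside 1.22%). Most of these 15 genes were low where they were seen, but not all. *lgc-32* was listed at 0 in library 1 and had 4.18 FPKM in library 2 with an interval from 3.54 to 4.82, the width that counting 172 fragments would give, and *lgc-7* was listed at 0 and had 3.69 FPKM with the width of 175 fragments. Both intervals lay well above 0, beside a difference in depth of 1.22 times. Such cases were not particular to the channel genes. Of 3263 protein-coding genes at 0 in library 1 only, 454 had the width of over 50 fragments in library 2. An exact 0 in such a file can also be a failed estimate, although the status that Cufflinks gave was OK for all 81 genes in both libraries. *lgc-8* had 0.0250 FPKM in library 1 and 1.85 FPKM in library 2.

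Several of the channel genes lie next to each other, and their levels were compared side by side. *lgc-7* and *lgc-8* are neighbours on the + strand of chromosome IV, with 1061 bp between their loci in ce10, and both were nearly or wholly missing from library 1, as described above. *deg-3* and *des-2*, which are known to be transcribed as an operon, lie 450 bp apart on the − strand of chromosome V. Their ratios between the libraries were alike, 2.57-fold and 2.47-fold higher in library 2, and *des-2* was 1.57 times as high as *deg-3* on average. Other neighbours were unlike each other. *lgc-1* and *lgc-29*, 238 bp apart on the + strand of chromosome V, differed in opposite directions, *lgc-1* being listed at 0 in library 1 with 0.427 FPKM in library 2 and *lgc-29* having 0.650 and 0.185 FPKM. The same held for *lgc-6*, at 3.71 and 2.05 FPKM, and *lgc-5*, at 0 and 1.0004 FPKM, which lie 572 bp apart on the + strand of chromosome IV. *acr-15* and *acr-16* lie 5921 bp apart on the + strand of chromosome V, and *acr-15* was 6.56 times as high, with values of 36.9 and 37.7 FPKM beside 5.76 and 5.61 FPKM. *gab-1* and *lgc-37*, which lie on opposite strands of chromosome III with 5435 bp between them, were both expressed and 2.83-fold apart.

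The longest run of neighbours is on chromosome X, where *lgc-13*, *lgc-14*, *lgc-15*, *lgc-16*, *lgc-17* and *lgc-18* follow each other on the + strand within 18821 bp (12109112 to 12127932 in ce10). None of them was expressed, and the highest value was 2.91 FPKM for *lgc-13* in library 1, with 0.597 FPKM in library 2. *lgc-18* had 0.672 and 0.161 FPKM, *lgc-15* had 0.812 FPKM and 0, and *lgc-14* had 0 and 0.458 FPKM. In a further pair on this chromosome, *lgc-23* had 2.63 and 0.409 FPKM, and *lgc-24* was listed at 0 and had 0.829 FPKM. Of the 21 channel genes on chromosome X, 2 were expressed, *lgc-47* and *lgc-4*, beside 33.2% of all protein-coding genes there. On chromosome III it was 8 of 10 (beside 46.7%), on chromosome I 1 of 5 (beside 42.9%) and on chromosome II 4 of 11 (beside 32.8%). Chromosome IV had 3 of 15 (beside 34.8%) and chromosome V 6 of 19 (beside 22.7%). How similar the sequences of the neighbours are was not analysed here, so reads shared between near-identical copies cannot be told apart.

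**Figure D4:**
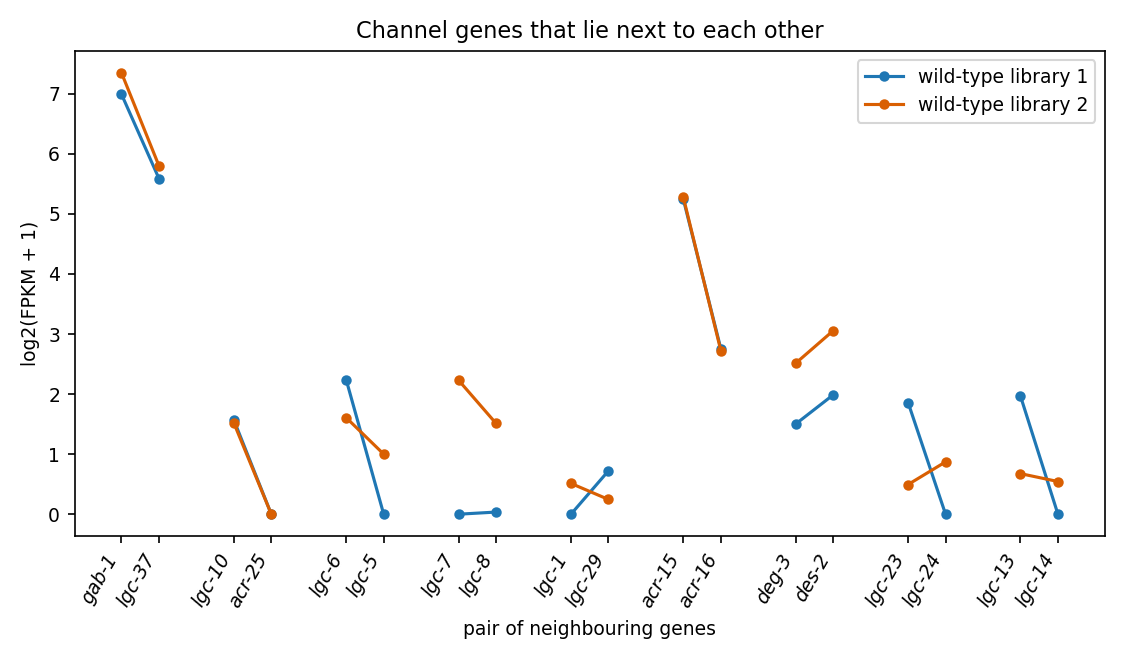
log2(FPKM + 1) in both wild-type libraries of 9 pairs of channel genes with at most 10000 bp between their loci, each pair joined by a line per library. *deg-3* and *des-2* shift together between the libraries, *acr-15* stays 6.56 times as high as *acr-16* in the mean, and *lgc-7* and *lgc-8* are near 0 in library 1.

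The remaining Cys-loop genes and the proteins that assemble and cluster these receptors were looked up as context. Of 21 Cys-loop genes outside the set, 8 were expressed. The highest of them was *acc-4*, of the acetylcholine-gated chloride channels, at 134 and 191 FPKM, which overlapped the values of *gab-1* and *lgc-38*. Subunits that join ACR-2 in its receptor were expressed, *acr-12* at 40.2 and 50.2 FPKM and *unc-38* and *unc-63* at the values given above, while *acr-3* was listed at 0 and had 0.109 FPKM. Of 15 genes for receptor assembly and clustering, 12 were expressed. *ric-3*, a chaperone of nicotinic receptors, had 14.1 and 50.3 FPKM, and *madd-4*, which motoneurons secrete to place receptors on muscle, had 211 and 400 FPKM. *lev-10*, which clusters the levamisole receptor, had 57.0 and 50.8 FPKM, and *lev-9*, a secreted protein of the same complex, had 0.335 and 0.399 FPKM.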

How the data were processed

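GFP-positive cells were sorted from dissociated young adults, and RNA libraries were made with the Illumina TruSeq kit and sequenced as single-end reads on a HiSeq4000. Mapping by TopHat and quantification by Cufflinks were done by the authors on the Galaxy server, and the FPKM of every gene was deposited for both wild-type libraries with the bounds of its 95% interval. Versions, annotation and strand setting were not given in the sources used here. The submitters' processing notes name the genome build ce10, together with HTSeq and DESeq2 for counts that were not used here. The columns do not name the replicate, and the libraries are numbered as deposited.

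Both outputs were joined on start sites and locus, 11 symbols that had turned into dates in library 1 being taken from library 2. For a symbol with several rows the row with the highest mean was used. Genes over 10 FPKM in both libraries were called expressed, which is the limit in the study's methods. The study's own list from this limit is much shorter than the 6839 gene symbols that passed here, and the reason was not examined. Values are means ± SD over 2 libraries. The 1 condition allowed no test. The upper bound of each interval was read, and its mirror image below the FPKM served as the lower bound, so 2 columns of deposited lower bounds were not used. Loci are those of the deposited values (ce10), counted from 1. Of the 81 genes, 1 had the same start in WBcel235 (Ensembl release 115), with a median shift of 52 bp, so that annotation was used only for gene IDs, biotypes, strands, exons, transcript lengths and overlaps. Values in both libraries are given for each expressed gene, each gene over the limit in 1 library and the genes of the ligand and nicotinic lists. For the highest of the other genes, values in both libraries or the mean alone are given. Values are also given for further genes picked after their values were seen. The genes and lists were chosen with earlier results of these data known, and the lists follow general knowledge of the family. *unc-74*, on the assembly list, and *acr-22* had no matching symbol. Promoter and protein motifs were not searched here. Counting functions were tested on simulated data. Alternatives were other limits, TPM, upper-quartile scaling, lower bounds, summed rows, a pseudocount and each library left out. Python 3.11.15, numpy 2.4.6, pandas 2.3.3, scipy 1.17.1 and matplotlib 3.10.9 were used.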

Additional observations from a re-analysis of the deposited data

How the results depend on the processing

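No paired analysis was possible because the values used are all from 1 group. The count of 24 expressed channel genes became 46 at a limit of 1 FPKM, which passes more genes by construction, and lay between 16 (a limit of 20 FPKM, and TPM) and 29 (a limit of 5 FPKM) under the other alternatives. The median of 3.27 FPKM was 4.29 without the genes at 0 in both libraries, 1.92 on the TPM scale and 2.82 for the lower bounds. The count of 22 genes higher in library 2 was 14 at a limit of 20 FPKM and 14 with TPM, where only 16 genes pass in each case, and 32 of the 46 that pass at 1 FPKM. The 5 genes over 2-fold apart became 13 at a limit of 1 FPKM, 2 at 20 FPKM and 3 with TPM. TPM multiplies all genes of a library by the same number, so its lower levels, and the fewer genes over 10, follow from a change of unit. With TPM 31 of the 81 mean levels moved by more than the SD of the libraries, and with upper-quartile scaling 0 did. The latter scales both libraries to the average of their upper quartiles, which by construction changes a mean of 2 values little.

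With 2 libraries of 1 condition, the levels have no test, and genes near 10 FPKM change sides with small differences. Of the 24 expressed genes, 12 share exonic bases with another annotated gene, at most 8.53% of their own, and reads there could belong to either. Depth was inferred from the Cufflinks intervals. The number of fragments it implies was whole, within 0.02, for 50.6% and 62.9% of genes with up to 20 such fragments in libraries 1 and 2.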
